A study of Mus musculus with 56 samples.

Results

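Genes of the acute phase response and inflammation were examined in mouse liver under inverted feeding. The members were the serum amyloid A genes Saa1, Saa2, Saa3 and Saa4, the orosomucoid genes Orm1 and Orm2, the lipocalin Lcn2, the haemoglobin-binding and haem-binding proteins Hp (haptoglobin) and Hpx (hemopexin), and Apcs, the serum amyloid P component. They were taken by gene name from the gene table, which gave 10 of 25415 listed genes, and 10 of 10 were tested among the 25348 genes that could be tested. The livers came from 56 C57BL/6J female mice, aged 9 weeks, kept in cycles of 12 h light and 12 h dark. For 7 days they had food only in the light phase (daytime-restricted feeding, DRF) or only in the dark phase (nighttime-restricted feeding, NRF, the reference), with no untreated or freely fed group among these samples. Livers of 4 animals per regimen were collected every 4 h from ZT0 to ZT24 (zeitgeber time, counted in hours from lights on), 7 times in all, which made 14 groups and 28 livers per regimen. No infection or injury was part of the design, so all values are those of livers without a stated inflammatory stimulus.

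The acute phase response is the change in liver secretion that follows infection or injury. Interleukin-6 acting through STAT3 and interleukin-1 acting through NF-kB and C/EBP factors raise the transcription of the positive acute phase genes in hepatocytes, while negative acute phase genes such as albumin fall. In the mouse Saa1, Saa2 and Apcs are the classical inducible proteins, Saa4 is largely constitutive, Saa3 is made mostly outside hepatocytes, and Orm1, Hp and Hpx are secreted at high levels also without a stimulus.

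Values are given as scaled counts, which were recovered from the deposited values by undoing their logarithmic scaling and which are proportional to the counts of a gene within a library. The whole counts behind them, called recovered counts, ranged in total from 218 to 492 M over the libraries (1 M is 1000000 counts) and were 86 or more for each member in every library. They exceed the depth of the study and so are not reads, and how many fragments stand behind a low value such as that of Saa3 was not tested. The errors given are those of the spread between animals, which includes counting error. In a bulk liver sample, fewer cells of a type and less RNA per cell cannot be told apart. Tests on single genes used limma on log2(scaled count + 1) with p-values adjusted by the Benjamini-Hochberg procedure over all 25348 genes, and 0.05 was the threshold. On this scale the fold change of a gene with low values, such as Saa3, is understated. Nothing in the labels says that animals shared a cage or a litter, so each library was counted as 1 replicate.

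Per kilobase of exon, the members spanned from 1362 scaled counts for Hpx to 0.153 for Saa3. Behind Hpx came Orm1 at 475 and Hp at 345, and these 3 genes lay above the 99th percentile of all genes tested. Saa4 at 20.2, Orm2 at 19.4 and Apcs at 14.7 formed a middle group whose order was not fixed, since Saa4 exceeded Orm2 in 27 and Orm2 exceeded Apcs in 37 of 56 livers. Among the inducible genes Saa1, Saa2 and Lcn2 lay lower than Apcs, with Saa1 at 3.64, Saa2 at 1.61 and Lcn2 at 1.03. The lengths used join all annotated exons of a gene, 2478 bases for Saa1 and 2518 for Saa2. Their longest coding transcripts have 609 and 652 bases. On those shorter lengths the levels of Saa1 and Saa2 per kilobase would be higher, and the order against Apcs was not tested. Saa1 exceeded Saa2 in 56 of 56 livers, by a median ratio per kilobase of 2.22. In GENCODE vM21 (GRCm38) the 4 Saa genes lie within one stretch of chromosome 7, with Saa3 at chr7:46711998-46715700, minus strand, Saa4 at chr7:46727998-46732603, minus strand, Saa1 at chr7:46740497-46742980, minus strand, and Saa2 at chr7:46751790-46754313, plus strand. Orm1 (chr4:63344560-63348163, plus strand) and Orm2 (chr4:63362449-63365878, plus strand) are neighbours on chromosome 4. Hpx (chr7:105591613-105600137, minus strand), Hp (chr8:109575128-109579172, minus strand), Lcn2 (chr2:32384633-32388252, minus strand) and Apcs (chr1:172893961-172895041, minus strand) each stand apart from the other members, and all 10 are protein-coding genes.

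Over the day as a whole, Apcs, Saa1 and Hpx were lower and Orm2 was higher under DRF, and the other 6 members did not pass the test. The difference between the mean of the 7 DRF groups and the mean of the 7 NRF groups was -0.57 ± 0.056 (log2 ± SE) for Apcs (adjusted p = 4.79e-10), -0.41 ± 0.13 for Saa1 (adjusted p = 0.0366), -0.15 ± 0.039 for Hpx (adjusted p = 0.00665) and 0.56 ± 0.14 for Orm2 (adjusted p = 0.00466). Thus 4 of 10 members were called, 3 lower and 1 higher, where 12.3% of all genes were called, 5.24% lower and 7.1% higher. The median of the 10 differences was -0.038, and that of all genes was -0.0017. The differences of the 6 other members were -0.19 ± 0.14 for Saa2, -0.057 ± 0.033 for Saa3, -0.02 ± 0.057 for Orm1, -0.0099 ± 0.088 for Saa4, 0.03 ± 0.12 for Lcn2 and 0.064 ± 0.081 for Hp. Permutation of the regimen among the 8 livers of each time, in 100000 draws, gave an unadjusted two-sided p of 0.0039 for Saa1, 0.00103 for Hpx and 7e-05 for Orm2, and for Apcs 1e-05, the smallest that these draws can give.

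**Figure D1:**
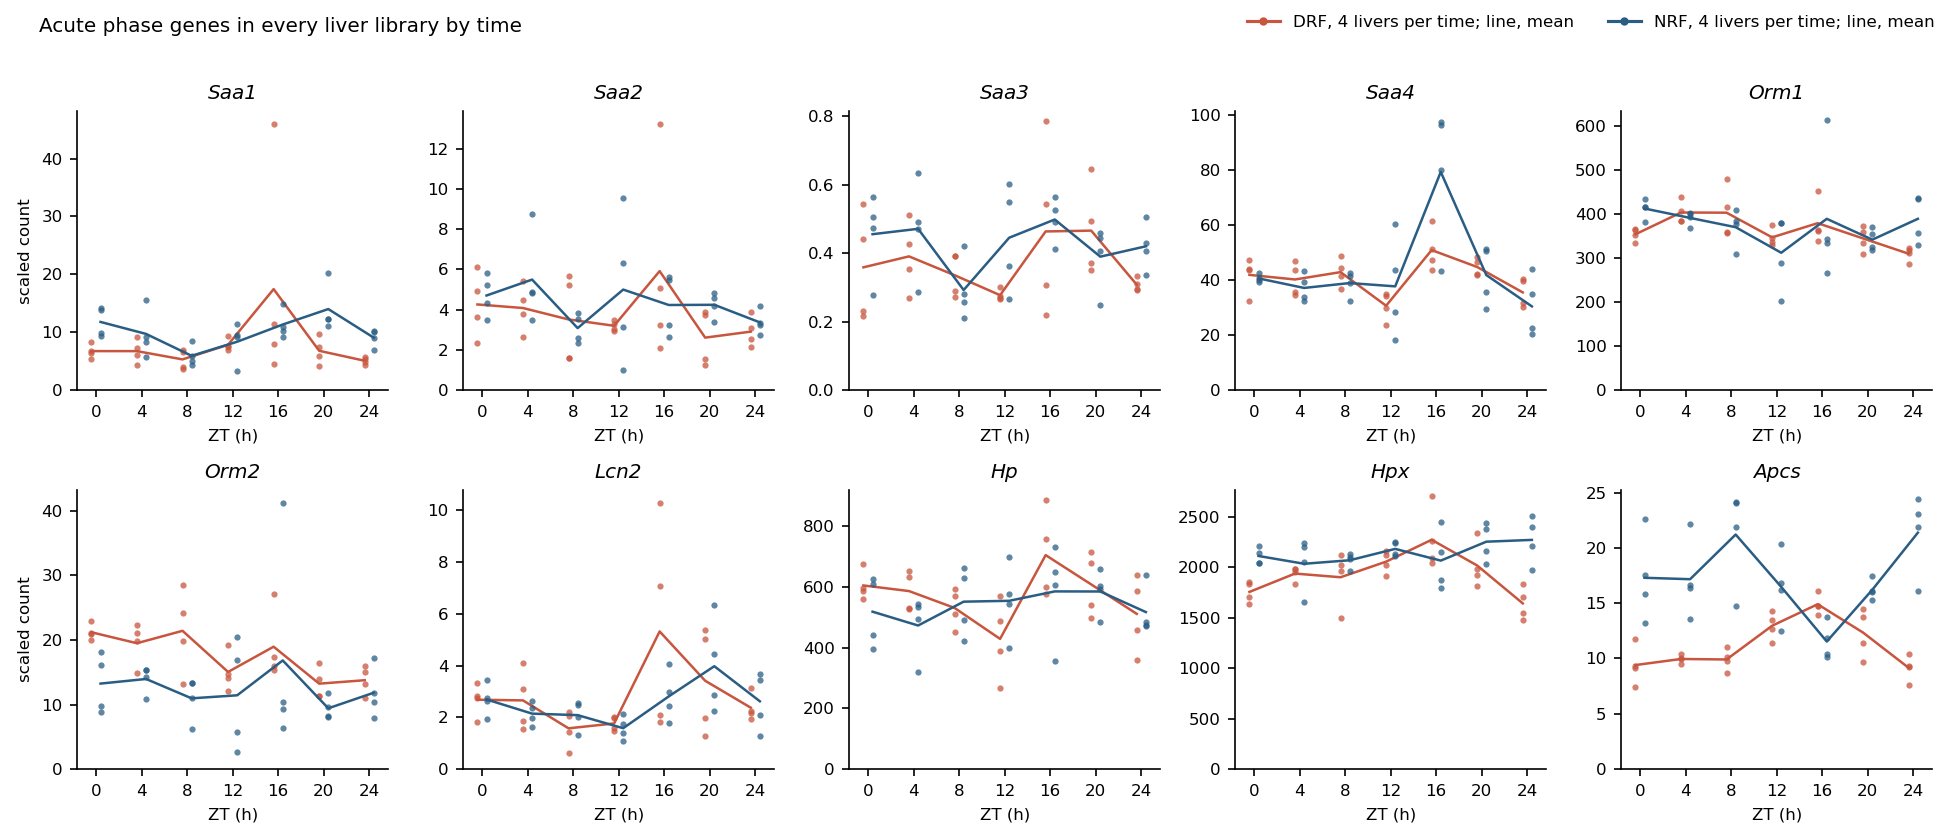
Scaled counts of the 10 members (y axes, linear and starting at 0, a separate range per gene) against zeitgeber time in hours. Each point is 1 liver, red for DRF and blue for NRF, and lines join the means of 4 livers. The DRF points of Apcs lie below the NRF points except around ZT12 to ZT16, those of Orm2 lie mostly above, and single livers stand far out at ZT16 in Saa1, Saa2, Lcn2 (DRF) and Orm2 and Orm1 (NRF).

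**Figure D2:**
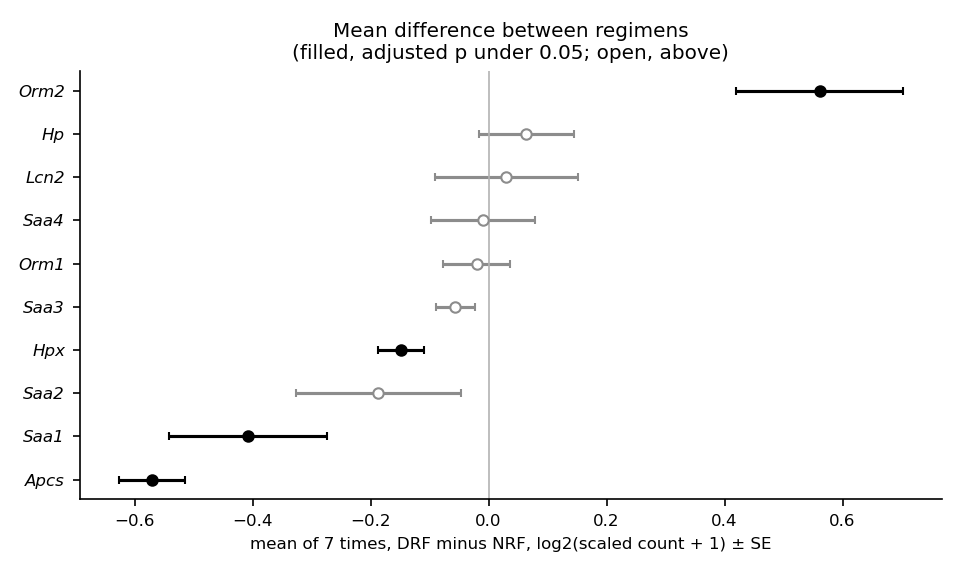
Difference of the mean over the 7 times, DRF minus NRF, in log2(scaled count + 1) with its SE (x axis) for each member (y axis), from limma over 28 livers per regimen. Filled points are the 4 members with an adjusted p under 0.05, of which Orm2 lies to the right of 0 and Hpx, Saa1 and Apcs lie to the left.

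The sequence before the transcription start is printed for 4 members, chosen because Saa1 and Saa2 varied together from animal to animal and because Orm2 and Apcs had the largest mean differences in opposite directions. The sequences are from RefSeq on GRCm38.p6, on the strand of the gene, 5′ to 3′, and capitals mark matches to the C/EBP-type motif TTGCNNAA in either orientation or to the STAT-type motif TTCNNNGAA. They hold the bases before the RefSeq start and stop where the gene begins in GENCODE vM21 if that is earlier, which leaves 207 bases for Saa2 (chr7:46751583-46751789, plus strand) and 250 for Saa1 (chr7:46742981-46743230, minus strand), Orm2 (chr4:63362199-63362448, plus strand) and Apcs (chr1:172895055-172895304, minus strand).
Saa1: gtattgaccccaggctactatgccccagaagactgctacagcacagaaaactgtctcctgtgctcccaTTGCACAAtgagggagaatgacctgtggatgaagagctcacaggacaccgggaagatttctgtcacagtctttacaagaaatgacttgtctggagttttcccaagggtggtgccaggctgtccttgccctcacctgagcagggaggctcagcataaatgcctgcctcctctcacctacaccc
Saa2: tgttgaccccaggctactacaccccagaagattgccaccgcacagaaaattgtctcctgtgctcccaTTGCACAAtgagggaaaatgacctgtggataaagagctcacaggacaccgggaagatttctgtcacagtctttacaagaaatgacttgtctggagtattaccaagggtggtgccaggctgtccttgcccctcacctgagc
Orm2: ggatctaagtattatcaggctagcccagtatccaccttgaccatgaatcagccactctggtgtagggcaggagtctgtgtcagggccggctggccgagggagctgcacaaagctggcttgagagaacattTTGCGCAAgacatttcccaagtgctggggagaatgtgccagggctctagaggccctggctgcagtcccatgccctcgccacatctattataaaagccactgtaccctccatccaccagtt
Apcs: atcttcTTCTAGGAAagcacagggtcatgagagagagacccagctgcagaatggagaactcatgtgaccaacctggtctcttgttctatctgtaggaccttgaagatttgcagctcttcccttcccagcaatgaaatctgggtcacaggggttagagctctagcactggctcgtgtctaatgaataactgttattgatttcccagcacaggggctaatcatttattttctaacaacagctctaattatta

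Windows of 250 bases before the start were present in RefSeq for 8 of the 10 members, without Orm1 and Hp. In a global alignment of the whole windows, Saa1 and Saa2 were identical at 238 of 251 aligned columns (94.8%), and both hold the same motif, which reads TTGCACAA. Saa1 aligned with the windows of Saa3, Saa4, Orm2, Hpx and Apcs at between 51.5% and 56.1%. The motif TTGCNNAA, whose other orientation is TTNNGCAA, was found in 7 of 8 member windows (Saa1, Saa2, Saa3, Saa4, Orm2, Lcn2 and Hpx) and in 9.56% of the 32851 windows of all genes. The window of Lcn2, before its RefSeq start, lies inside the gene as annotated in GENCODE vM21, so its match is not upstream of that gene. In Orm2 the motif reads TTGCGCAA and spans bases -120 to -113. TTCNNNGAA was found in 1 member window, that of Apcs at bases -244 to -236, and in 7.02% of all windows. The E-box CACGTG and the degenerate NF-kB motif were found in 0 of 8 member windows and in 6.02% and 7.25% of all windows. The D-box type motif TTATGNAA was found in 1 member window, that of Saa3, on the same bases as its TTGCNNAA match, and in 3.07% of all windows. AGGTCA, a nuclear receptor half-site, was found in 4 member windows (Saa1, Saa2, Saa4 and Hpx) and in 14.02% of all windows. These matches are letters in a window and not measured sites.

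Apcs encodes serum amyloid P component, the pentraxin that takes the place of C-reactive protein as the inducible pentraxin of the mouse. It was lower under DRF at ZT0, ZT4, ZT8 and ZT24, the times at which its difference passed the test. Its peak lay in the dark phase under DRF and in the light phase under NRF. At ZT0 the 4 DRF livers had 7.401, 9.18, 9.32 and 11.7 scaled counts and the 4 NRF livers had 22.6, 13.2, 17.5 and 15.8. At ZT4 the values were 10.01, 9.92, 9.46 and 10.4 under DRF and 13.6, 16.4, 22.1 and 16.6 under NRF. At ZT8 they were 9.77, 11.02, 8.69 and 10.2 under DRF and 24.1, 24.01, 14.8 and 21.9 under NRF. At each of these 3 times every DRF liver lay below every NRF liver. At ZT12 DRF rose to 13.5, 11.4, 12.7 and 14.3 while NRF had 20.4, 12.5, 16.9 and 16.2, and the groups overlapped. At ZT16 the order was the other way round, with 13.9, 16.1, 14.8 and 14.8 under DRF, each above the NRF values of 10.1, 11.9, 10.4 and 13.8. At ZT20 DRF had 14.5, 11.4, 13.7 and 9.69 and NRF had 16.1, 17.5, 16.0005 and 15.3, again with DRF below and no overlap. ZT24 repeated the order of ZT0 in separate animals, with 7.63, 9.25, 9.34 and 10.4 under DRF and 21.9, 16.1, 23.1 and 24.4 under NRF.

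The groups of Apcs did not overlap at 6 of 7 times, 5 with DRF below and 1 with DRF above, where the share of all genes without overlap was 19.4% (ZT0), 22.3% (ZT4), 18% (ZT8) and 16.1% (ZT12) in the light phase and at its end. In the dark phase this share was 15.8% (ZT16) and 17.5% (ZT20), and it was 16.7% at the next lights on (ZT24). The differences were -0.81 ± 0.15 (log2 ± SE) at ZT0 (adjusted p = 7.66e-05), -0.71 ± 0.15 at ZT4 (adjusted p = 3.60e-04), -1.01 ± 0.15 at ZT8 (adjusted p = 3.24e-06) and -1.13 ± 0.15 at ZT24 (adjusted p = 2.04e-07). The difference at ZT16 was 0.35 ± 0.15 and did not pass the test after adjustment (adjusted p = 0.109), nor did those at ZT12 and ZT20 (-0.31 ± 0.15 and -0.38 ± 0.15). Over all times, the mean was 11.2 ± 2.38 scaled counts under DRF and 17.3 ± 4.28 under NRF (SD, n = 28 livers each), a ratio of 0.648. All 28 DRF livers lay below the NRF median, which held for 0.146% of all genes. With each of the 56 livers left out in turn, the mean difference of Apcs kept between -0.59 and -0.55 and its call.

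Apcs was rhythmic under both regimens, with peaks 10.9 ± 1.18 h (SE) apart. A 24-h cosine fitted to the log2 values peaked at 15.2 ± 0.547 h after lights on under DRF with an amplitude of 0.32 ± 0.046 (adjusted p = 1.75e-05), a peak-to-trough fold of 1.55. Under NRF it peaked at 4.297 ± 1.04 h with an amplitude of 0.28 ± 0.082 (adjusted p = 0.0245) and a fold of 1.47. The rhythms differed between regimens (adjusted p = 3.83e-06). The call under NRF was lost without NRF ZT16 replicate 1, 2 or 3 (adjusted p = 0.06899, 0.0545 and 0.0634), in the exact rank test against 12 cosine templates (adjusted p = 0.125), on the values as deposited (adjusted p = 0.208) and without 3 livers that stood apart in other members, described later (adjusted p = 0.0683), whereas the call under DRF and the difference in rhythm were kept with every liver left out in turn.

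Hpx encodes hemopexin, which binds free haem and carries it to the liver. It was lower under DRF by a small amount, and the spread within its groups was small too. At ZT0 the DRF livers had 1632, 1832, 1851 and 1708 scaled counts and the NRF livers had 2210.3, 2047, 2045 and 2146. At ZT24 they had 1478, 1837, 1544 and 1709.7 under DRF and 2399, 2503, 2214 and 1969 under NRF. At these 2 times every DRF liver lay below every NRF liver, where the groups of 19.4% and 16.7% of all genes did not overlap, in either direction. The difference passed the test at ZT24 (-0.47 ± 0.10, log2 ± SE, adjusted p = 8.88e-04), while that at ZT0 was -0.27 ± 0.10 (adjusted p = 0.0694). At ZT16 the group means were 2273 ± 303 under DRF and 2066 ± 298 under NRF (SD, n = 4 each), and the groups overlapped there and at the 4 other times. Over the day the mean was 1940.4 ± 261 under DRF and 2141 ± 194 under NRF (SD, n = 28 each), and 24 of 28 DRF livers lay below the NRF median.

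Hpx was rhythmic under DRF, with a peak at 14.2 ± 1.04 h and an amplitude of 0.16 ± 0.043 (adjusted p = 0.0102), and its amplitude under NRF was 0.046 ± 0.043 (adjusted p = 0.671). The rhythm call under DRF was kept with each of the 56 livers left out in turn. It was lost without replicate 2 or without replicate 4 of every group (adjusted p up to 0.0884). The rhythms differed (adjusted p = 0.0393), but this call was lost with 13 of the 56 livers left out in turn, 8 of DRF (ZT0 replicates 1 and 4, ZT12 replicate 4, ZT16 replicates 2 and 4, and ZT24 replicates 1, 3 and 4) and 5 of NRF (ZT4 replicate 2, ZT16 replicates 1 and 3, and ZT24 replicates 1 and 2) (adjusted p up to 0.0716). The values as deposited are on a logarithmic scale and were put through log2(value + 1) again for the test, so their differences are compressed and not in the same units. On them the mean difference of Hpx was -0.0096 and was no longer called (adjusted p = 0.536).

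Hp encodes haptoglobin, which captures free haemoglobin, and it showed no difference between regimens that passed the test at any of the 7 times. Scaled counts of Hp ranged from 267 to 888 with a median of 573 under DRF and from 320.3 to 731 with a median of 544 under NRF, and the groups overlapped at 7 of 7 times. Within a group the highest liver had up to 2.14 times the lowest (DRF ZT12, 267, 571, 390.0 and 488 scaled counts). The amplitude of a 24-h cosine was 0.16 ± 0.091 under DRF and 0.13 ± 0.083 under NRF (adjusted p = 0.368 and 0.451). Beside these haem and haemoglobin scavengers, 5 of 5 erythroid genes tested were called higher under DRF in the mean difference, where 7.1% of all genes were. Among them was the globin gene Hba-a1, a near-identical copy of Hba-a2 (0.61 ± 0.12, log2 ± SE, adjusted p = 2.82e-04). Also among them were the globin gene Hbb-bt (0.65 ± 0.13, adjusted p = 2.92e-04) and the haem synthesis gene Alas2 (0.34 ± 0.069, adjusted p = 3.82e-04). The summed level of the 5 genes had a median of 1103 (range 567 to 2039) under DRF and 739.8 (range 469 to 1351) under NRF. The part of blood in the values of Hpx and Hp was not tested.

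Saa1 and Saa2 encode the inducible serum amyloid A proteins, which associate with high-density lipoprotein. Over the day Saa1 was lower under DRF, with its groups furthest apart late in the dark phase and at lights on, and the difference of Saa2 did not pass the test. At ZT20 the DRF livers had 7.51, 5.94, 9.62 and 4.13 scaled counts of Saa1 and the NRF livers had 12.3, 12.3, 20.3 and 11.1. At ZT24 they had 4.83, 5.73, 4.31 and 5.44 under DRF and 8.98, 10.3, 6.88 and 10.1 under NRF. At ZT0 the values were 6.44, 8.38, 6.71 and 5.46 under DRF and 13.8, 9.89, 9.33 and 14.1 under NRF. Every DRF liver lay below every NRF liver at these 3 times, where the groups of 17.5% (ZT20), 16.7% (ZT24) and 19.4% (ZT0) of all genes did not overlap, in either direction. At ZT4 Saa1 had 4.35, 9.21, 7.25 and 6.16 under DRF and 9.26, 15.6, 5.65 and 8.37 under NRF. At ZT8 it had 6.998, 4.06, 3.604 and 6.602 and 8.48, 4.38, 5.897 and 4.997, the lowest NRF mean of the 7 times. At ZT12 it had 6.93, 9.39, 7.69 and 7.37 under DRF and 9.502, 11.5, 3.33 and 9.17 under NRF. The groups overlapped at ZT4, ZT8 and ZT12. At ZT16 DRF had 11.3, 46.04, 4.51 and 7.905, with replicate 2 far above all other livers, and NRF had 9.27, 14.9, 10.2 and 10.97.

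The differences of Saa1 at single times did not pass the test after adjustment, the lowest adjusted p being 0.0652 at ZT20 (-0.96 ± 0.35, log2 ± SE). Over the day 26 of 28 DRF livers lay below the NRF median. Without DRF ZT16 replicate 2, Saa1 was called at ZT20 (adjusted p = 0.0121) and in the test over all 7 times (adjusted p = 0.00266, against 0.07097 with it). Without either DRF ZT16 replicate 3 or NRF ZT12 replicate 3, it was also called in both (adjusted p between 0.0215 and 0.0475). The mean difference was lost as a call with 13 of the 56 livers left out in turn, 6 of DRF (ZT4 replicate 1, ZT8 replicate 3, ZT16 replicates 3 and 4, ZT20 replicate 4 and ZT24 replicate 3) and 7 of NRF (ZT0 replicate 1, ZT4 replicate 2, ZT8 replicate 1, ZT12 replicates 1 and 2, ZT16 replicate 2 and ZT20 replicate 3), with an adjusted p of up to 0.0573. Over all 56 left-out livers the difference lay between -0.50 (without DRF ZT16 replicate 2, where the call was kept) and -0.35. Under NRF, Saa1 was rhythmic with a peak at 20.02 ± 0.8897 h and an amplitude of 0.46 ± 0.11 (adjusted p = 0.00666). This call, from a fit to the 28 NRF livers alone, was kept with each of them left out in turn. It was lost without replicate 4 of every group (adjusted p = 0.0634). Under DRF its amplitude was 0.38 ± 0.16 (adjusted p = 0.152), and the difference in rhythm between regimens did not pass the test (adjusted p = 0.117), while without DRF ZT16 replicate 2 it did (adjusted p = 0.0473).

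Scaled counts of Saa2 ranged from 1.24 to 13.2 with a median of 3.39 under DRF and from 1.001 to 9.55 with a median of 3.99 under NRF, with overlap at 7 of 7 times. Its cosine amplitude was 0.046 ± 0.15 under DRF and 0.077 ± 0.12 under NRF, below its SE in both. The log2 ratio of Saa1 to Saa2 was 1.03 ± 0.43 under DRF and 1.24 ± 0.46 under NRF (SD, n = 28 each), a difference of -0.21 with an unadjusted two-sided permutation p of 0.0378 over 2 such ratios tested. Saa1 and Saa2 are close paralogs, so reads could be split between them: 0 of 460 stretches of 150 bases, the length of a read, in the Saa1 mRNA occurred in Saa2, but 13.2% of stretches of 50 bases did. How the counting treated reads that match both genes is not given in the sources used here.

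Saa3 was near the floor of expression. Its scaled counts ranged from 0.217 to 0.786 with a median of 0.322 under DRF and from 0.2097 to 0.635 with a median of 0.437 under NRF, and the groups did not overlap at 1 time, ZT24, with 0.3096, 0.334, 0.293 and 0.297 under DRF and 0.337, 0.507, 0.406 and 0.431 under NRF. At ZT24 the groups of 16.7% of all genes did not overlap. No difference of Saa3 passed the test at a single time. Saa4, the constitutive family member, had scaled counts from 23.7 to 61.4 with a median of 42.1 under DRF and from 18.3 to 97.4 with a median of 40.3 under NRF. Its largest group mean was at ZT16 under NRF, 79.3 ± 25.2 (SD, n = 4), from livers with 43.4, 96.3, 97.4 and 80.2 scaled counts. Under DRF at ZT16 they had 61.4, 51.3, 43.8 and 47.2. The groups overlapped, and the difference of -0.57 ± 0.23 did not pass the test (adjusted p = 0.0931), while it did without NRF ZT16 replicate 1 (adjusted p = 0.0115).

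Orm1 and Orm2 encode orosomucoids (alpha-1-acid glycoproteins), abundant plasma proteins that bind drugs and modulate immune cells. Orm2 was higher under DRF over the day, and the difference of Orm1 did not pass the test. At ZT0 the DRF livers had 20.9, 22.9, 21.1 and 19.9 scaled counts of Orm2 and the NRF livers had 9.83, 16.1, 8.88 and 18.1, without overlap, where the groups of 19.4% of all genes did not overlap. At ZT8 they had 24.2, 19.9, 13.1 and 28.5 under DRF and 13.3, 6.16, 13.3 and 11.01 under NRF, which overlapped. At ZT12 DRF had 12.1, 19.2, 14.7 and 14.2 while NRF spread over 16.96, 20.4, 2.57 and 5.76. At ZT16 DRF had 15.4, 27.1, 15.9 and 17.3 and NRF had 6.29, 10.4, 41.3 and 9.34, of which replicate 3 was the highest of all 56 livers. At ZT4, ZT20 and ZT24 the group means were 19.5 ± 3.26, 13.2 ± 2.44 and 13.8 ± 2.198 under DRF. At the same times they were 13.95 ± 2.17, 9.41 ± 1.69 and 11.8 ± 3.88 under NRF (SD, n = 4 each). The group mean was thus higher under DRF at 7 of 7 times, and all 28 DRF livers lay above the NRF median, which held for 0.276% of all genes. No difference of Orm2 at a single time passed the test, nor did the test over all 7 times (adjusted p = 0.0609). Without NRF ZT16 replicate 3, Orm2 passed over all 7 times (adjusted p = 0.00321), at ZT8 (adjusted p = 0.0492) and at ZT16 (adjusted p = 0.0428). It also passed over all 7 times without DRF ZT8 replicate 3, NRF ZT0 replicate 4 or NRF ZT12 replicate 1, 2 or 3 (adjusted p between 0.0146 and 0.0498). The mean difference stayed called with each of the 56 livers left out in turn, between 0.49 and 0.64.

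Scaled counts of Orm1 ranged from 287 to 480.2 with a median of 359 under DRF and from 202 to 613 with a median of 379 under NRF. The groups of Orm1 did not overlap at 2 times, ZT0 and ZT24, with DRF below, where those of 19.4% and 16.7% of all genes did not overlap, in either direction. At ZT24 the DRF livers had 287, 311, 324 and 319 and the NRF livers had 331, 357, 434 and 436, a difference that did not pass the test (-0.32 ± 0.15, adjusted p = 0.175). The log2 ratio of Orm2 to Orm1 was -4.41 ± 0.30 under DRF and -5.04 ± 0.49 under NRF (SD, n = 28 each), higher than the NRF median in 28 of 28 DRF livers (permutation p = 1e-05, two-sided, the smallest that 100000 draws can give). Between these paralogs 0 of 626 stretches of 150 bases of the mRNA were shared, and 20.4% of stretches of 50 bases were. The median under DRF was 359 scaled counts for Orm1 and 16.2 for Orm2, and the part of shared reads in the values of Orm2 was not tested. Orm1 was not called rhythmic (adjusted p = 0.104 under DRF and 0.234 under NRF), although it was under NRF without NRF ZT16 replicate 3 (adjusted p = 0.008199) and under DRF without DRF ZT16 replicate 2 (adjusted p = 0.0333). The difference in rhythm of Orm1 was called without NRF ZT16 replicate 3 (adjusted p = 0.00742, against 0.107 with it).

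Lcn2 encodes lipocalin 2, which withholds iron from bacteria by binding their siderophores. No difference between regimens passed the test at any time, and both regimens had their highest means in the dark phase. At ZT16 the DRF livers had 7.07, 10.3, 1.82 and 2.096 scaled counts and the NRF livers had 1.78, 4.05, 2.96 and 2.45. At ZT20 they had 1.98, 5.04, 5.36 and 1.28 under DRF and 2.86, 4.46, 6.36 and 2.23 under NRF. At ZT12 all 8 livers lay between 1.09 and 2.13. The cosine peaked at 20.4 ± 1.12 h under NRF, where the rhythm passed the test (amplitude 0.32 ± 0.098, adjusted p = 0.0303), and at 19.02 ± 1.37 h under DRF, where it did not (amplitude 0.38 ± 0.15, adjusted p = 0.127). The peaks were 1.42 ± 1.77 h apart, and the difference in rhythm did not pass the test (adjusted p = 0.815). The call under NRF was lost without NRF ZT8 replicate 3, NRF ZT20 replicate 2 or NRF ZT20 replicate 3 (adjusted p = 0.0647, 0.0631 and 0.0687). It was also lost in the exact rank test (adjusted p = 0.0896) and with the length index described later as a covariate (adjusted p = 0.0526). Without the 3 livers that stood apart it was lost (adjusted p = 0.0581), as it was without replicate 2, 3 or 4 of every group (adjusted p up to 0.178). The rhythm under DRF was called without DRF ZT20 replicate 4 (adjusted p = 0.0469).

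Diurnal rhythms were thus called in 2 of 10 members under DRF (Apcs and Hpx) and in 3 of 10 under NRF (Saa1, Apcs and Lcn2), where 37.6% and 38.5% of all genes were called. By the exact rank test 2 members were called under DRF and 1 under NRF, where 32.2% and 33.5% of all genes were. A difference in rhythm between regimens was called in 2 of 10 (Apcs and Hpx), where 38.7% of all genes were called. At single times 1 member was called at ZT0, ZT4 and ZT8 (Apcs) and 2 at ZT24 (Apcs and Hpx), where 15.9%, 20.3%, 12.9% and 14% of all genes were called. None of the 10 members was called by limma at ZT12, ZT16 or ZT20, where 15.1%, 15.1% and 13.7% of all genes were. An unadjusted p under 0.05, a laxer threshold than that of these shares, was reached by 1, 2 and 2 members. The share of all genes at that laxer threshold is not given here. In the test over all 7 times together 2 of 10 members were called (Apcs and Hpx), where 42.4% of all genes were.

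**Figure D3:**
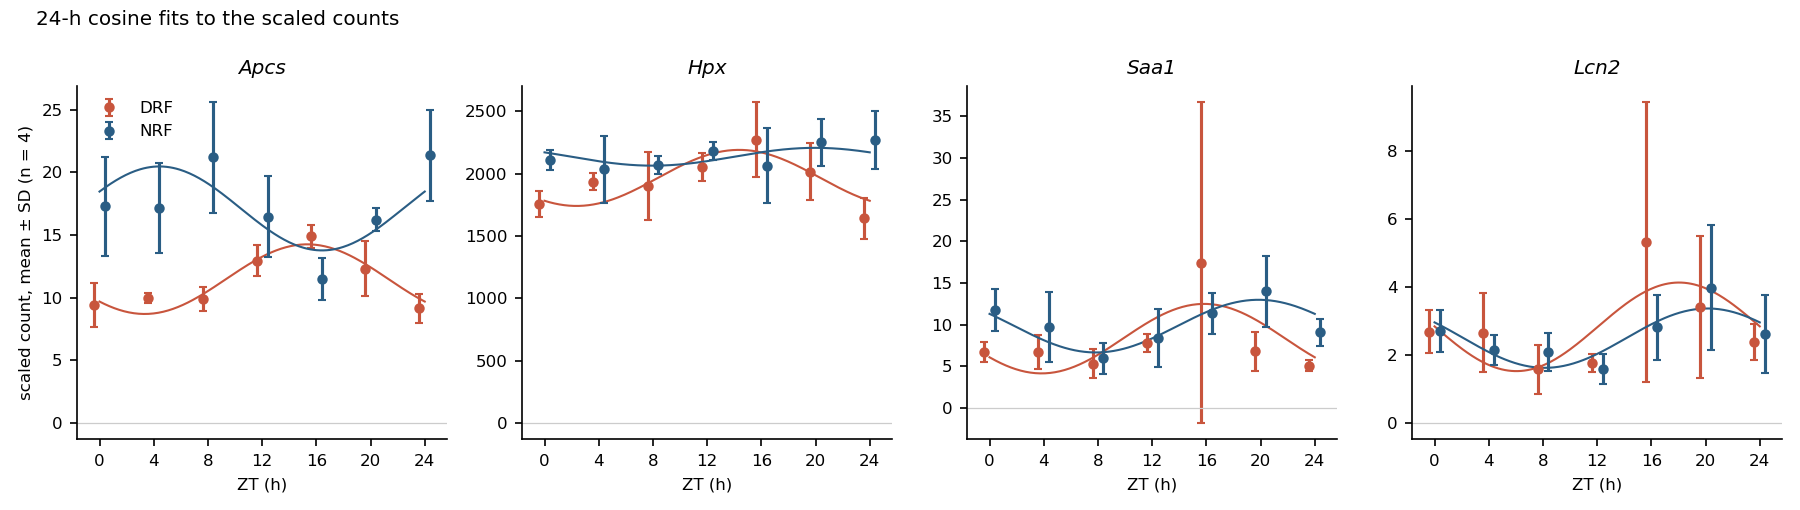
Mean ± SD of 4 livers (points, scaled count on linear y axes) against zeitgeber time in hours for the 4 members with a rhythm call in at least 1 regimen, DRF in red and NRF in blue. Curves are 24-h cosines fitted to the scaled counts of 28 livers per regimen. The Apcs curves peak near ZT15 under DRF and near ZT4 under NRF, and the wide bars of Saa1 and Lcn2 at ZT16 come from DRF replicate 2 and, in Lcn2, also replicate 1.

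Because food was offered 12 h apart, each DRF group was also set against the NRF group 12 h away, which compares livers at the same time after food became available. In this test over 6 contrasts, 6 of 10 members were called (Saa1, Saa4, Orm2, Lcn2, Hpx and Apcs), where 38.3% of all genes were called. Among the single contrasts, Apcs was lower in DRF ZT0 than in NRF ZT12 (-0.74 ± 0.15, log2 ± SE), in DRF ZT8 than in NRF ZT20 (-0.66 ± 0.15), in DRF ZT12 than in NRF ZT24 (-0.67 ± 0.15) and in DRF ZT20 than in NRF ZT8 (-0.73 ± 0.15), with adjusted p between 5.32e-04 and 0.0102. Of all genes, 2.62%, 11.6%, 1.53% and 16.3% were called in these contrasts. Saa1 was lower in DRF ZT8 than in NRF ZT20 (-1.25 ± 0.35, adjusted p = 0.01598), and Saa4 was lower in DRF ZT4 than in NRF ZT16 (-0.91 ± 0.23, adjusted p = 0.00688), where 14.7% of all genes were called. In the contrast of DRF ZT16 with NRF ZT4, limma called none of the members, where 17.2% of all genes were called. An unadjusted p under 0.05, a laxer threshold than that of this share, was reached by 2 members. The share of all genes at the laxer threshold is not given here, so this count has no background. With single livers left out, Saa1 lost its call over the 6 contrasts in 9 cases, Lcn2 in 6 and Saa4 in 4, with adjusted p up to 0.118 for Saa1 without NRF ZT20 replicate 3, 0.0732 for Lcn2 without NRF ZT20 replicate 3 and 0.0705 for Saa4 without NRF ZT16 replicate 2 or 3. Apcs lost its call in DRF ZT12 against NRF ZT24 without DRF ZT12 replicate 2 or NRF ZT24 replicate 4 (adjusted p = 0.0536 and 0.0669), and Saa1 lost its call in DRF ZT8 against NRF ZT20 without DRF ZT8 replicate 3 or NRF ZT20 replicate 3 (adjusted p = 0.0557 and 0.0713). Libraries also differed in how levels moved with exon length. With an index of this difference as a covariate only Apcs of the 10 members stayed called over the 6 contrasts (adjusted p = 1.23e-06), and the contrasts of Saa1 and Apcs between DRF ZT8 and NRF ZT20 were lost. The index itself moved with sampling time. It was negative in every DRF liver at ZT0, ZT4 and ZT8 and in every NRF liver at ZT0 and ZT4. It was positive in every DRF liver at ZT12 and ZT20 and in every NRF liver at ZT24. What the covariate took out thus cannot be told apart from differences between sampling times.

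ZT24 and ZT0 are the same time of day in separate animals. None of the 10 members differed between them by limma under DRF or NRF (lowest adjusted p = 0.432 and 0.252), where 3.03% and 7.79% of all genes were called. An unadjusted p under 0.05 was reached by 0 members under DRF and 0 under NRF. The largest of these differences was that of Orm2 under DRF, -0.60 ± 0.37.

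Within a group some of the members varied together from animal to animal. Deviations of each liver from its group mean were correlated over 56 livers for 45 pairs of members, and 12 pairs passed by Pearson's r and by Spearman's rho (adjusted p under the threshold of 0.05 for both, 100000 permutations of animals within groups), all 12 with r above 0, while 33 pairs did not pass. As a background chosen after these correlations were seen, an r and a rho at least as high as the lowest of these 12 pairs (0.39 and 0.41) were reached by 1.85% of pairs among all genes tested and by 2.99% of pairs among genes with a mean scaled count of at least 1. On the values as deposited, 24 member pairs passed. The closest pairs were Orm1 with Orm2 (r = 0.85, rho = 0.65) and Saa1 with Saa2 (r = 0.85, rho = 0.81), with permutation p of 1e-05 by r for both, the smallest that these draws can give. Saa1 also varied with Saa3 (r = 0.65, rho = 0.48) and with Lcn2 (r = 0.63, rho = 0.50), and Saa2 varied with Orm2 (r = 0.64, rho = 0.60) and Orm1 (r = 0.61, rho = 0.55). Without the 2 livers farthest from the median of the gene named earlier in each pair, r was 0.75 for Orm1 with Orm2, 0.83 for Saa1 with Saa2, 0.49 for Saa1 with Saa3, 0.48 for Saa1 with Lcn2, 0.56 for Saa2 with Orm2 and 0.51 for Saa2 with Orm1. Apcs passed with Hpx (r = 0.43, rho = 0.43) and with no other member, and its r with Saa1 was 0.033. The remaining pairs that passed were Saa1 with Orm2, Saa2 with Saa3, Saa2 with Saa4, Saa3 with Saa4 and Lcn2 with Hp, with r between 0.39 and 0.60. The paralog pairs may share reads.

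**Figure D4:**
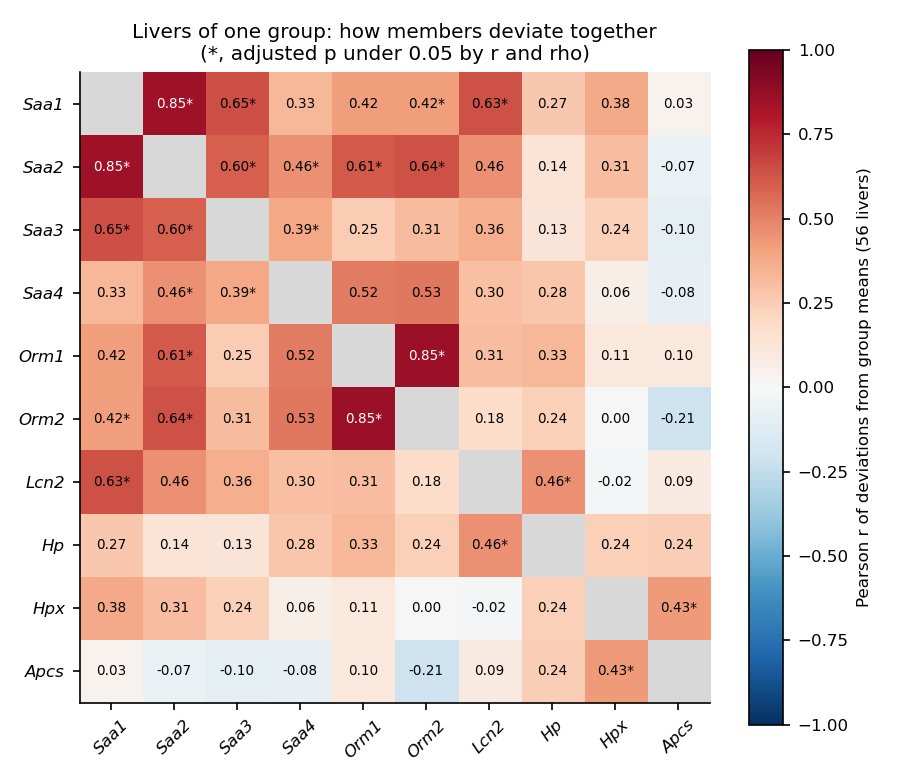
Pearson r between pairs of members (rows and columns) of the deviations of 56 livers from their group means in log2(scaled count + 1), from -1 in blue to 1 in red. Asterisks mark the 12 pairs with adjusted p under 0.05 by r and by rho; Saa1 with Saa2 and Orm1 with Orm2 are darkest, and the row of Apcs is pale except with Hpx.

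3 livers stood apart in these genes, and they were chosen after their values were seen. DRF ZT16 replicate 2 had the highest Saa1 (46.04), Saa2 (13.2), Saa3 (0.786), Lcn2 (10.3), Hp (888) and Hpx (2704) of all 56 livers. Its Saa1 was 5.81 times and its Saa2 3.81 times the mean of the 3 other livers of its group, whereas its Saa4 and Apcs were 1.01 and 1.11 times that mean. NRF ZT16 replicate 3 had the highest Orm2 (41.3, 4.76 times the 3 others), Orm1 (613) and Saa4 (97.4), while its Saa1 was 0.8703 times the others. This library also had the lowest total of recovered counts of all 56 (218 M). NRF ZT12 replicate 3 had the lowest Saa1 (3.33), Saa2 (1.001), Saa4 (18.3), Orm1 (202) and Orm2 (2.57) of all livers. Without these 3 livers the mean differences were -0.55 for Saa1, 0.54 for Orm2, -0.17 for Hpx and -0.58 for Apcs, with the same 4 members called, and r was 0.80 for Saa1 with Saa2 and 0.65 for Orm1 with Orm2.

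**Figure D5:**
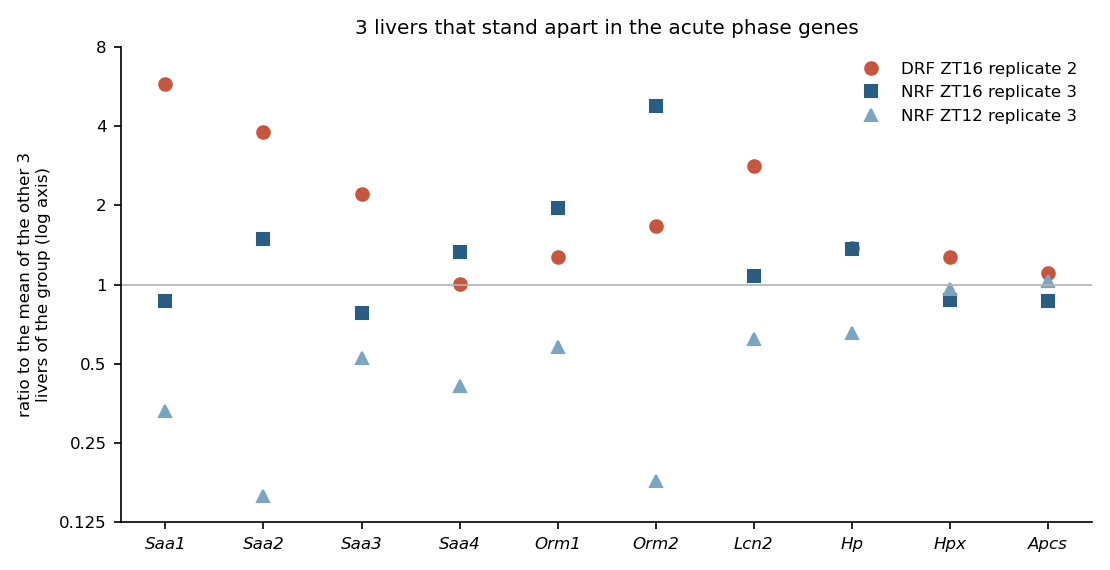
Ratio of the scaled count in 1 liver to the mean of the other 3 livers of its group (y axis, log scale) for each member (x axis). The red circles (DRF ZT16 replicate 2) are highest for Saa1 and Saa2, the dark squares (NRF ZT16 replicate 3) for Orm2 and Orm1, and the pale triangles (NRF ZT12 replicate 3) lie below 1 for the Saa and Orm genes, while the ratios of Apcs stay near 1 in all 3 livers.

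Markers of other cells in these livers were read as summed levels. The mean difference called 12.3% of all genes, which is the share to set beside each count of marker genes called in it. The 9 neutrophil genes tested summed to between 1.82 and 4.57 scaled counts under DRF and between 1.88 and 4.75 under NRF, with 0 of 9 called in the mean difference. In DRF ZT16 replicate 2 they summed to 3.57, which ranked 17 of 56. The 10 Kupffer cell genes (resident macrophages of the liver) summed to between 660.2 and 1142 under DRF and between 636 and 1383 under NRF, with 0 of 10 called, and ranked 12 of 56 in DRF ZT16 replicate 2. In the same liver the 4 cholangiocyte genes (bile duct cells) ranked 4 (9.15) and the 4 endothelial genes ranked 7 (426). The cholangiocyte sum ranged from 4.37 to 9.497 under DRF and from 3.61 to 10.5 under NRF, and was the lowest of all livers in NRF ZT12 replicate 3 (3.61). The 1 exocrine pancreas gene tested ranked 56 in NRF ZT16 replicate 3 and 4 in NRF ZT12 replicate 3. Of the hepatocyte genes Apoa1, Apoc3 and F2, tested out of 6 listed, Apoa1 was lower under DRF (-0.30 ± 0.095, adjusted p = 0.0272), and their sum was the lowest of all livers in NRF ZT12 replicate 3 (2089) and ranked 6 in NRF ZT16 replicate 3 (4586). The mean difference called 0 of 4 endothelial, 0 of 4 stellate, 0 of 4 cholangiocyte and 0 of 1 adipocyte genes, and 1 of 5 T cell (Cd4, -0.14 ± 0.044), 1 of 4 B cell (Ms4a1, -0.089 ± 0.031) and 1 of 1 exocrine pancreas genes (Cela2a, -0.076 ± 0.026), all 3 lower under DRF. The part of other cells in the results for the members was not tested.

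Other acute phase genes, from lists drawn up with earlier results of these data known, moved in both directions. Of 27 further positive acute phase genes tested, 14 passed the test of the mean difference, 6 higher and 8 lower under DRF, where 12.3% of all genes passed. The most strongly called were the terminal complement component C9 (-0.39 ± 0.053, log2 ± SE, adjusted p = 6.79e-07) and the inter-alpha-trypsin inhibitor chain Itih3 (-0.25 ± 0.046, adjusted p = 1.08e-04), both lower, and angiotensinogen Agt (0.27 ± 0.039, adjusted p = 1.66e-06) and Hamp2, a paralog of the iron hormone hepcidin (0.80 ± 0.16, adjusted p = 3.20e-04), both higher. Their median difference was -0.039, against that of all genes given earlier. A difference in rhythm was called in 20 of 27, where 38.7% of all genes were called. A rhythm was called in 20 under DRF and in 14 under NRF, against 37.6% and 38.5% of all genes. Peak times of listed genes are those of the fitted cosines, whether or not a rhythm was called in that regimen. Examples are the fibrinogen chain Fgg, which peaked at ZT15.8 under DRF and ZT5.14 under NRF (adjusted p = 5.98e-14), and the mannose-binding lectin Mbl1, at ZT13.1 and ZT0.361 (adjusted p = 6.68e-13). The metallothionein Mt1 peaked at ZT22.4 and ZT8.17 (adjusted p = 3.10e-13), and the interleukin-1 receptor antagonist Il1rn at ZT21.7 and ZT9.39 (adjusted p = 4.43e-13).

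Of 6 negative acute phase genes tested, 3 were lower under DRF and 0 were higher, against 5.24% and 7.1% of all genes: the growth factor Igf1 (-0.24 ± 0.06, adjusted p = 0.00402), Fetub (-0.16 ± 0.043, adjusted p = 0.00953) and Apoa1, given earlier, the main protein of high-density lipoprotein. Albumin, transthyretin, transferrin and Rbp4 were not analysed here. In this list, 2 of 6 genes differed in rhythm, against 38.7% of all genes, Igf1 (adjusted p = 0.00551) and the corticosteroid-binding globulin Serpina6 (adjusted p = 2.42e-07). Of 25 genes tested that signal to acute phase genes, 4 were called in the mean difference, against 12.3% of all genes, and the cytokines Il6, Osm and Lif of this list were not analysed here. The leukaemia inhibitory factor receptor Lifr was lower (-0.44 ± 0.054, adjusted p = 4.70e-08), as was the interleukin-1 receptor Il1r1 (-0.17 ± 0.06, adjusted p = 0.0496), and the interleukin-1 receptor accessory protein Il1rap (0.16 ± 0.038, adjusted p = 0.00359) and the transcription factor Cebpa (0.093 ± 0.031, adjusted p = 0.0394) were higher. A difference in rhythm was called in 18 of 25, against 38.7% of all genes. A rhythm was called in 14 under DRF and in 19 under NRF, against 37.6% and 38.5% of all genes, and peak times are again those of the fitted cosines. The interleukin-6 receptor Il6ra peaked at ZT21.5 under DRF and ZT12.4 under NRF (adjusted p = 1.95e-09), the kinases Tyk2 and Jak1 at ZT19.8 and ZT23.1 under DRF and ZT6.34 and ZT15.01 under NRF, and the NF-kB inhibitor Nfkbia at ZT23.4 and ZT9.42 (adjusted p = 1.92e-06). Of 10 receptors and partners of the member proteins, 3 were higher and 0 lower under DRF, against 7.1% and 5.24% of all genes: the scavenger receptors Cd36 (0.54 ± 0.069, adjusted p = 1.53e-07) and Scarb1 (0.24 ± 0.042, adjusted p = 4.01e-05), both of which bind serum amyloid A, and the ferritin light chain Ftl1 (0.30 ± 0.053, adjusted p = 6.77e-05). A difference in rhythm was called in 5 of these 10, against the 38.7% above, among them Lrp1, the receptor for haem bound to hemopexin (adjusted p = 1.39e-06), and the iron exporter Slc40a1 (adjusted p = 6.40e-05).

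Outside the members, the genes with a mean scaled count of at least 1 whose deviations from group means were most like those of Saa1 over 56 livers were Itgax (r = 0.66), an integrin of dendritic cells and macrophages, Prg4 (r = 0.63), Cd274 (r = 0.57), which encodes the immune checkpoint ligand PD-L1, Pml (r = 0.55) and 9930111J21Rik1 (r = 0.54). Without DRF ZT16 replicate 2 these were 0.59, 0.56, 0.51, 0.42 and 0.46. Saa2 among the members was closer than any of them. Over the 14 group means, the genes most like Saa1 were Sept8 (r = 0.89), Gm10658 (r = 0.88), Kif13b (r = 0.82), Abca9 (r = 0.82) and Ms4a4d (r = 0.80). These values describe the livers measured, share their libraries and carry no test.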

How the data were processed

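Liver RNA of 56 mice was sequenced by the authors after ribosomal RNA depletion, with strand-specific dUTP libraries and paired reads of 150 bases, per the labels, whose molecule field reads polyA RNA. The submitters' processing notes name CASAVA 1.8, featureCounts 1.5.0-p3 and the mouse build GRCm38. The aligner, and whether counting used strand, are not given in the sources used here. The deposited gene values are named TPM, but they are a score that the authors obtained by a logarithm: each value equals a·ln(1 + f·k) divided by exon length, with whole counts k and 2 factors a and f per library. With GENCODE vM21 exon lengths this form predicted the stored values to within 0.52 of their numerical spacing. Of 25415 listed genes, 23165 gave whole counts at the annotated length (the 10 members among them) and 2183 at a length searched on the values, while 65 were too deep to check and 2 were not rebuilt, and these 67 were left out. Scaled counts are f·k and 1 unit stood for 304 to 723 recovered counts. Since these counts exceed the depth of the study, they are not called reads. The design assumed TPM, and its tests were kept and applied to scaled counts.

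Groups were taken from sample titles. No 2 libraries were copies: recovered counts of 84 pairs within groups differed by a chi-square of at least 246 per degree of freedom. Fits used limma 3.58.1 (R 4.3.3) with a trended empirical Bayes prior, with a group-means model, or with a mean, cosine and sine of 24 h per regimen. The rhythm difference was the interaction of regimen with cosine and sine. Scripts were tested on simulated data with known differences and rhythms. Correlations and permutations used numpy 2.4.6. The authors' transcript and circular RNA tables were not used. Alternatives were other values, pseudocounts (0.1 in place of 1), scalings, filters, priors, covariates and left-out replicates. The members and gene lists were chosen with earlier results of these data known. From each list the text names at most 4 genes per test that passed it, in order of p, and the 5 genes most like Saa1.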

Additional observations from a re-analysis of the deposited data

Results flagged for a closer look

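In 5 of 140 groups of 4 livers (10 members in 14 groups) the highest or lowest liver lay beyond Dixon's 95% critical value for the ratio of its gap to the group's range, where chance flags about 1 in 20 groups. DRF ZT16 replicate 2 was set apart in Saa1 (46.04 scaled counts) and in Orm2 (27.1). NRF ZT16 replicate 3 was set apart in Orm2 (41.3, against a mean of 8.67 in the 3 other livers). NRF ZT20 replicate 3 was set apart in Saa1 (20.3), and NRF ZT24 replicate 1 in Hp (639). All 5 were the highest liver of their group.

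The 24-h rhythm differed between DRF and NRF by the test of the interaction in Apcs (adjusted p = 3.83e-06, limma, 28 livers per regimen) and in Hpx (adjusted p = 0.0393). Apcs peaked at 15.2 ± 0.547 h under DRF and at 4.297 ± 1.04 h under NRF.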

How the results depend on the processing

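Of 4 members called in the mean difference, Apcs was called under 14 of 14 alternatives, Orm2 under 13 and Saa1 and Hpx under 12 each. The difference of Apcs was -0.20 on the values as deposited and down to -0.62 in the other alternatives. The values as deposited are logarithmic and were logged again for the tests, so their differences are in other units. Without replicate 4 of every group, Apcs alone was called. Leaving out replicates 1 to 4 in turn gave between 1 and 4 members in the mean difference, 0 and 3 in the rhythm under NRF, 1 and 2 in the difference in rhythm, 2 and 4 over the 7 same-time contrasts, 2 and 3 over the 12-h shifted contrasts, 1 and 2 at ZT8, and 0 and 1 at ZT16 and at ZT20. The values as deposited called 4 members as rhythmic under DRF, 5 under NRF (Saa1, Saa4, Lcn2, Hp and Hpx, without Apcs), 1 in the difference in rhythm, 1 over the same-time contrasts, 3 between ZT24 and ZT0 under NRF, and 24 of 45 member pairs against 12. With the filter on a mean scaled count of at least 1, 2 members were called at ZT0, 1 at ZT20 and 4 over the same-time contrasts. The length index of the libraries (from -0.18 to 0.15), which moved with sampling time, left 1 member in the 12-h shifted test as a covariate and gave 2 at ZT20. The exact rank test called 1 member under NRF (Saa1). Without the 3 livers set apart, chosen after seeing the data, 2 members were called at ZT0, 2 at ZT8, 1 at ZT12, 1 at ZT20, 4 at ZT24 and 5 over the same-time contrasts. The number of all genes called moved too in some of these settings, as given in the next paragraph. Between ZT24 and ZT0 under NRF, the values as deposited called 5994 of all genes beside the 3 members. The changes in the counts of members were not set against those of all genes, and their cause was not tested.

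Uncalled mean differences near 0 changed sign: Saa4 to 0.012 on the values as deposited and to 0.055 and 0.025 without replicates 2 and 4 (from -0.092 to 0.055 over the 4 left-out replicates), Orm1 to 0.0071 on the values as deposited, and Lcn2 to -0.031 without the 3 livers. Over all genes, the count called between ZT24 and ZT0 moved from 769 to 1795 (values as deposited) and 28 (length index) under DRF and from 1974 to 5994 and 0 under NRF, and the 12-h shifted count from 9708 to 4627 and the DRF rhythm count from 9538 to 6347 with the length index. Left-out replicates lowered the whole-table count by more than 1.5 times in 10 comparisons: the mean difference from 3127 to 1882 at the lowest, ZT4 from 5149 to 3243, ZT8 from 3274 to 1963, ZT12 from 3828 to 2448, ZT16 from 3830 to 2234, ZT20 from 3474 to 2251, ZT24 from 3551 to 2214, ZT24 against ZT0 to 119 under DRF and 156 under NRF, and the 12-h shifted test to 6073. Without the 3 livers, ZT16 had 2541. With the replicate number as a block, the counts of members were the same except over the same-time contrasts (3 against 2, with Saa1 added), and Il1r1 and Cela2a were no longer called in the mean difference. The numbers do not pair the animals: deviations of same-numbered DRF and NRF livers correlated at between -0.14 and 0.084 over 28 pairs (median -0.0064), and 6 of 28 correlated best with their own number. Peak times from fits to linear values differed by less than 1 SE for the 5 called rhythms.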
